A study of Mus musculus with 8 samples.

Results

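The transcripts described here are those of mouse genes named as DEAD box (Ddx) or DEAH box (Dhx) helicases, measured in mouse striatum in total lysate and in RNA pulled down with the RNA-binding proteins CPEB1 and CPEB4. Members were chosen by symbol alone, as genes whose name in the array annotation begins with Ddx or Dhx and a number. There were 48 of them among 17097 genes with a probe set of their own, 32 with a Ddx and 16 with a Dhx symbol. A probe set is a group of short oligonucleotides that together measure 1 transcript. Where a gene had several, the brightest on average across the 8 arrays was read. Ddx49 was annotated only on a probe set shared with Homer3 and was not used.

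RNA immunoprecipitation (RIP) recovers RNA crosslinked to a protein with an antibody against that protein. Male HD and WT mice aged 7 to 8 months were used, striata were pooled within each genotype, and the design text names 4 mice. From each pool came a CPEB4 RIP, a CPEB1 RIP, a RIP with rabbit IgG as the control for unspecific recovery, and an aliquot of the precleared lysate, the input. Each of these 8 groups was measured on 1 array. The labels give HD and WT as genotypes with no allele, strain or promoter, and they do not spell out HD. All fractions had been fixed with formaldehyde. Because each genotype is 1 pool, nothing measures the spread between animals.

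DEAD and DEAH box proteins use ATP to unwind RNA or to strip proteins from it, and are named after the amino acids of a motif in their ATPase core. They act at nearly every step in the life of an RNA, from transcription and splicing through export to translation and decay, and many of them assemble ribosomes in the nucleolus. CPEB proteins bind the cytoplasmic polyadenylation element in the 3′ untranslated region of mRNAs and repress or activate their translation by way of the poly(A) tail, in neurons also near synapses. The DDX6 protein itself was found with CPEB in repressive complexes of Xenopus oocytes. The arrays measured the mRNAs of the helicases, not the helicase proteins.

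Values are log2 RMA summaries, on which a difference of 1 is a 2-fold change. The median of each array was between 4.03 and 4.28. The SD over the 11345 genes tested was 1.68 in HD and 1.79 in WT on the CPEB4 arrays, against 1.28 to 1.68 on the other arrays. Among genes that mark the medium spiny neurons of striatum, Ppp1r1b stood between 8.32 and 11.92 and Pde10a between 9.08 and 12.20 over the 8 arrays, while Tac1 stayed between 3.22 and 3.92 and Drd1 between 4.32 and 5.4. Fractions were compared with limma over all 8 arrays, with the genotype pool as a block, and p-values were adjusted over all genes tested (Benjamini-Hochberg, threshold 0.05). The pools stand in for replicates, so n = 2 for each fraction.

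Of the 48 members, 38 had a mean above 4.23, where probe sets fall into equal numbers above and below, and were tested. The remaining 10 had values between 2.73 and 5.27 on all arrays: Ddx4 and Ddx43, known from germ cells, the interferon-induced Ddx60, the splicing genes Ddx20, Dhx15 and Dhx35, the ribosome assembly genes Ddx52 and Dhx37, the DNA helicase gene Ddx11, and Dhx36, whose protein unfolds G-quadruplexes. Dhx36 stood at 3.30 and 3.77 with CPEB4 (HD and WT), at 2.91 and 2.97 with CPEB1, at 3.14 and 3.91 with IgG and at 3.0 and 3.39 in input. Its second probe set had 2.83 to 4.10. These low values give no reading of enrichment, since they lie in the background range of the arrays.

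The highest signals of the family on the CPEB4 arrays were those of Ddx6, Ddx24, Ddx18, Ddx19b, Ddx47, Ddx46, Ddx3x, Ddx10 and Ddx42, each at 8.37 or more in both pools. Values of different probe sets are not levels on a common scale, so these set no order of abundance. Above a value of 8 there were 10 and 10 members on the CPEB4 arrays (HD and WT), 6 and 9 on the CPEB1 arrays, 5 and 7 on the IgG arrays and 4 and 2 in the inputs. As shares of the 38 members these were 26.3% and 26.3% with CPEB4, against 13.7% and 16% of all genes tested on those arrays, and 15.8% and 23.7% with CPEB1, against 7.63% and 14.2%. With IgG they were 13.2% and 18.4%, against 5.71% and 8.14% of all genes, and in input 10.5% and 5.26%, against 10.2% and 6.79%. The share of members was above that of all genes on all 6 RIP arrays, the IgG control included.

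**Figure D1:**
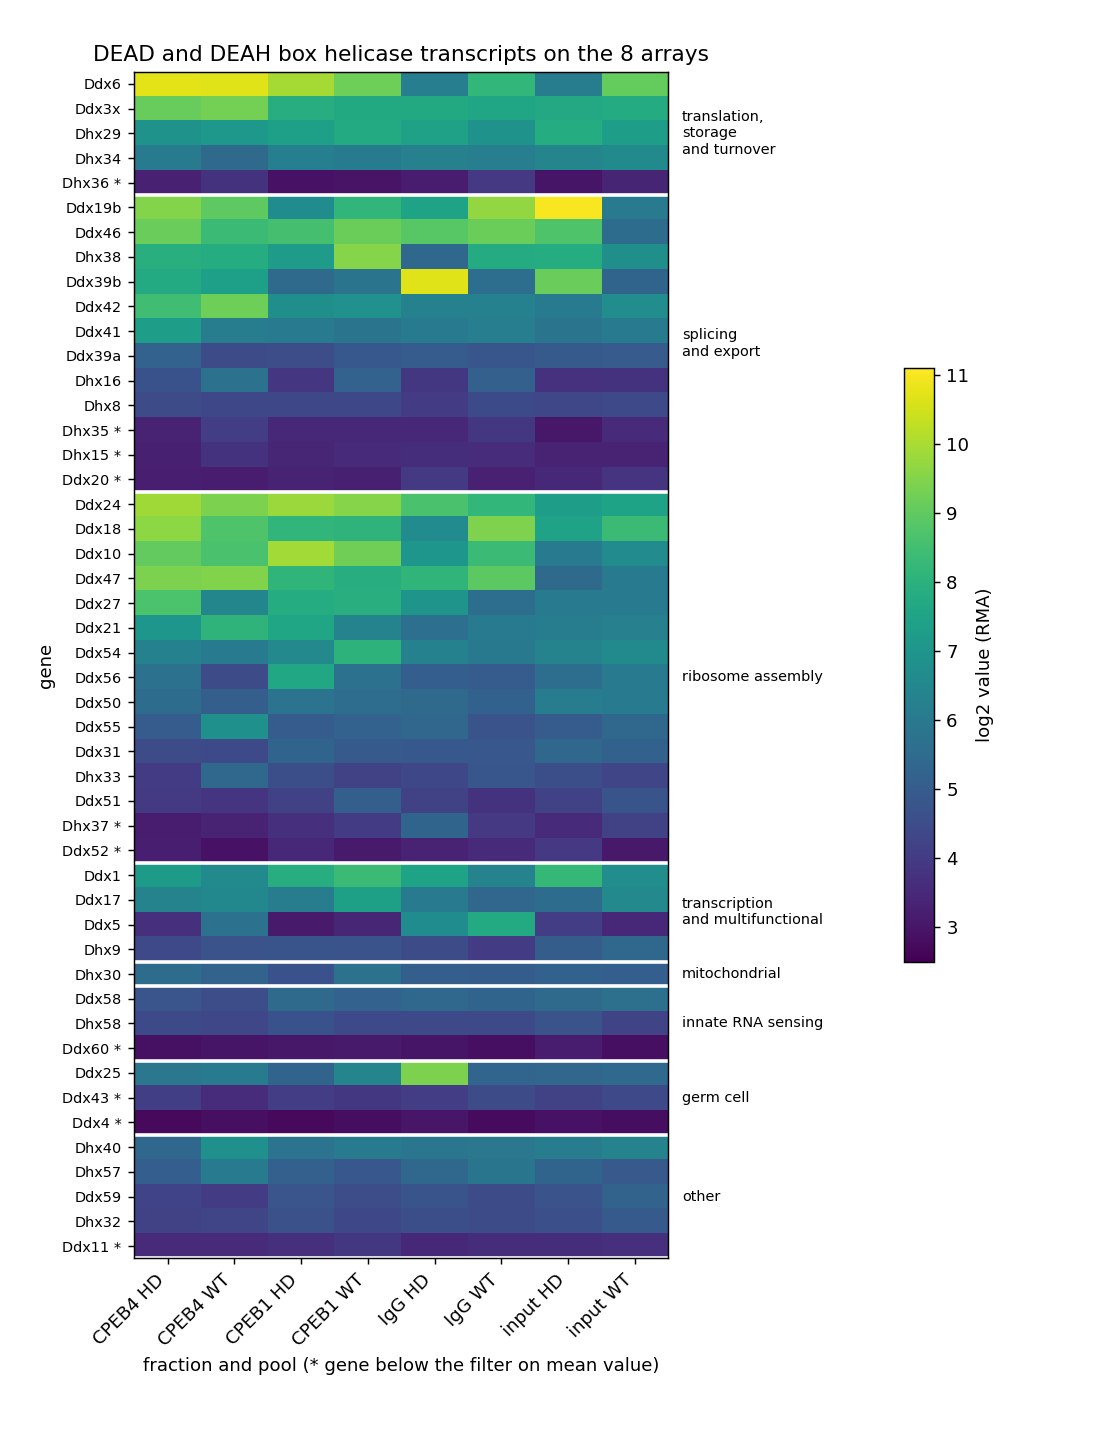
Log2 RMA values of the 48 helicase genes (rows, grouped by known role, highest mean first) on the 8 arrays (columns, fraction and pool). Ddx6, Ddx42 and Ddx3x are brightest in the 2 CPEB4 columns, while Ddx39b reaches 10.67 on the IgG array of the HD pool and Ddx19b 11.03 in the HD input.

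With CPEB4 against IgG, the question is which helicase mRNAs came down with CPEB4 beyond unspecific recovery. Ddx42 rose, and it was the single member to pass. No further probe set of its own was on the array, so its values could not be set beside another reading. Ddx42 encodes a helicase bound to the SF3b complex, which recognises the branch point in splicing. Its values were 8.46 and 9.19 with CPEB4 in HD and WT, against 6.26 and 6.28 with IgG. With CPEB1 they were 6.79 and 6.86, and in input 6.05 and 6.71. Both CPEB4 arrays thus lay above all 6 others, and the CPEB1, IgG and input values lay within 1 log2 unit of each other. The difference from IgG was 2.55 ± 0.31 (SE, n = 2 pools), 5.87-fold, with adjusted p = 0.0367 by limma.

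By the same test 1 of 38 members was higher (2.63%) and 0 were lower, against 2.33% of all genes tested higher and 0.0441% lower. The family's share is thus close to that of all genes. At an unadjusted p under 0.05 there were 8 members, 6 of them higher, against 22.9% of all genes in either direction. The median difference of the 38 members was 0.16, with a range of -2.52 to 3.52, and that of all genes tested was -0.06. Both medians moved with the filter on mean value. Above the 75th percentile they were 0.64 for members and 0.34 for all genes, and with no filter on dim genes 0.002 and -0.16. Single arrays moved the members' median: it was 0.08 without the CPEB4 array of HD, 0.24 without that of WT and 0.30 without the IgG array of HD. Both pools were above IgG for 13 members and below it for 6, against 33.8% and 42% of all genes, so that the share above is near the background. For the same comparison the median was 0.61 over 6 medium spiny neuron markers, 0.96 over 3 oligodendrocyte, 0.03 over 3 astrocyte, -0.28 over 4 microglia and -0.31 over 3 endothelial markers, and their part in the helicase values was not tested. The call of Ddx42 was lost under cyclic loess (difference 2.08, adjusted p = 0.0611), after quantile normalization (1.61, adjusted p = 0.136), with trended robust eBayes (adjusted p = 0.0515) and when only those 2 fractions were fitted (adjusted p = 0.0865). It was lost too without either input array (adjusted p = 0.0596 for each), without the CPEB4 array of HD (0.148) or WT (0.212) and without the IgG array of HD (0.146) or WT (0.169), and it held without either CPEB1 array (0.0474). In each of the 6 fits without an input, CPEB4 or IgG array no gene at all passed, and its difference stayed between 2.31 and 2.79.

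Among the members that act in translation, storage and turnover of mRNA, Ddx6 had the largest difference of the whole family. Its protein represses translation and promotes decapping, and is a core component of P-bodies. Ddx6 stood at 10.74 and 10.68 with CPEB4, at 9.94 and 9.22 with CPEB1, at 6.17 and 8.21 with IgG and at 6.10 and 9.07 in input, in HD and WT. The CPEB4 arrays agree closely and lie above all others, whereas HD minus WT was -2.04 in IgG and -2.97 in input. The difference from IgG was 3.52 ± 0.95 (adjusted p = 0.131), with 4.57 in HD and 2.47 in WT. It did not pass.

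The other 2 probe sets of Ddx6 gave the same order for CPEB4. One stood at 8.84 and 9.25 with CPEB4, at 5.5 and 6.45 with CPEB1, at 5.79 and 8.03 with IgG and at 6.61 and 6.13 in input. The other stood at 7.79 and 9.33 with CPEB4, at 5.27 and 6.34 with CPEB1, at 4.21 and 7.31 with IgG and at 6.10 and 5.5 in input. On each of the 3 probe sets both CPEB4 arrays lay above the 6 other arrays. Tested singly, the differences of these 2 from IgG were 2.14 ± 0.65 (adjusted p = 0.15) and 2.80 ± 0.85 (adjusted p = 0.148), and the mean of all 3 probe sets gave 2.82 (adjusted p = 0.0618). For CPEB1 the probe sets differed: the first lay above IgG in both pools, and the others below IgG in at least 1 pool.

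Ddx3x, whose protein helps ribosomes start on structured mRNAs, was more even. It had 9.10 and 9.29 with CPEB4, 7.87 and 7.72 with CPEB1, 7.71 and 7.56 with IgG and 7.7 and 7.79 in input. The CPEB4 arrays were the highest, and the 6 others lay within 7.56 to 7.87. The difference from IgG was 1.56 ± 0.25 (2.94-fold, adjusted p = 0.0521), just outside the threshold. It was 0.74 under cyclic loess (adjusted p = 0.335) and 0.44 after quantile normalization (adjusted p = 0.548). The mean of its probe sets gave 0.81 (adjusted p = 0.146). It passed with no filter on dim genes (adjusted p = 0.0457), with median centring (0.0386) and with no block (0.0287). Its other probe sets had means of 3.79 and 3.48, in the background range. Dhx29, which aids scanning of the small ribosomal subunit, and Dhx34, of nonsense-mediated decay, had differences of -0.18 and -0.47.

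Of the 13 tested genes of ribosome assembly, 6 lay above IgG with CPEB4 in both pools and 1 below, against the 33.8% and 42% of all genes, with a median of 0.90. Of the 9 of splicing and export 3 lay above and 0 below, with a median of 0.62. Ddx21, a nucleolar helicase of rRNA processing, had 7.02 and 8.08 with CPEB4, against 5.65 and 5.99 with IgG (1.73 ± 0.56, adjusted p = 0.17). Ddx24 had 9.88 and 9.41 with CPEB4, against 8.62 and 8.19 with IgG (1.24 ± 0.28, adjusted p = 0.0984). For both genes the CPEB4 arrays lay above both IgG arrays, but neither passed. That held for 10 of 38 members (26.3%) and for 29.3% of all genes tested. Ddx27 had 1.25 ± 0.64 and the splicing helicase gene Dhx38 had 1.29 ± 0.95 (adjusted p = 0.288 and 0.412). The second Ddx27 probe set, also above the filter, gave -0.45 ± 0.30. For Dhx38 the difference from IgG came to 2.56 in HD and 0.03 in WT, while its second probe set had 8.81 and 8.02 with CPEB4, against 6.89 and 6.25 with IgG (1.85 ± 0.45, adjusted p = 0.1). That second Dhx38 probe set is of a class that can match several transcripts.

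**Figure D2:**
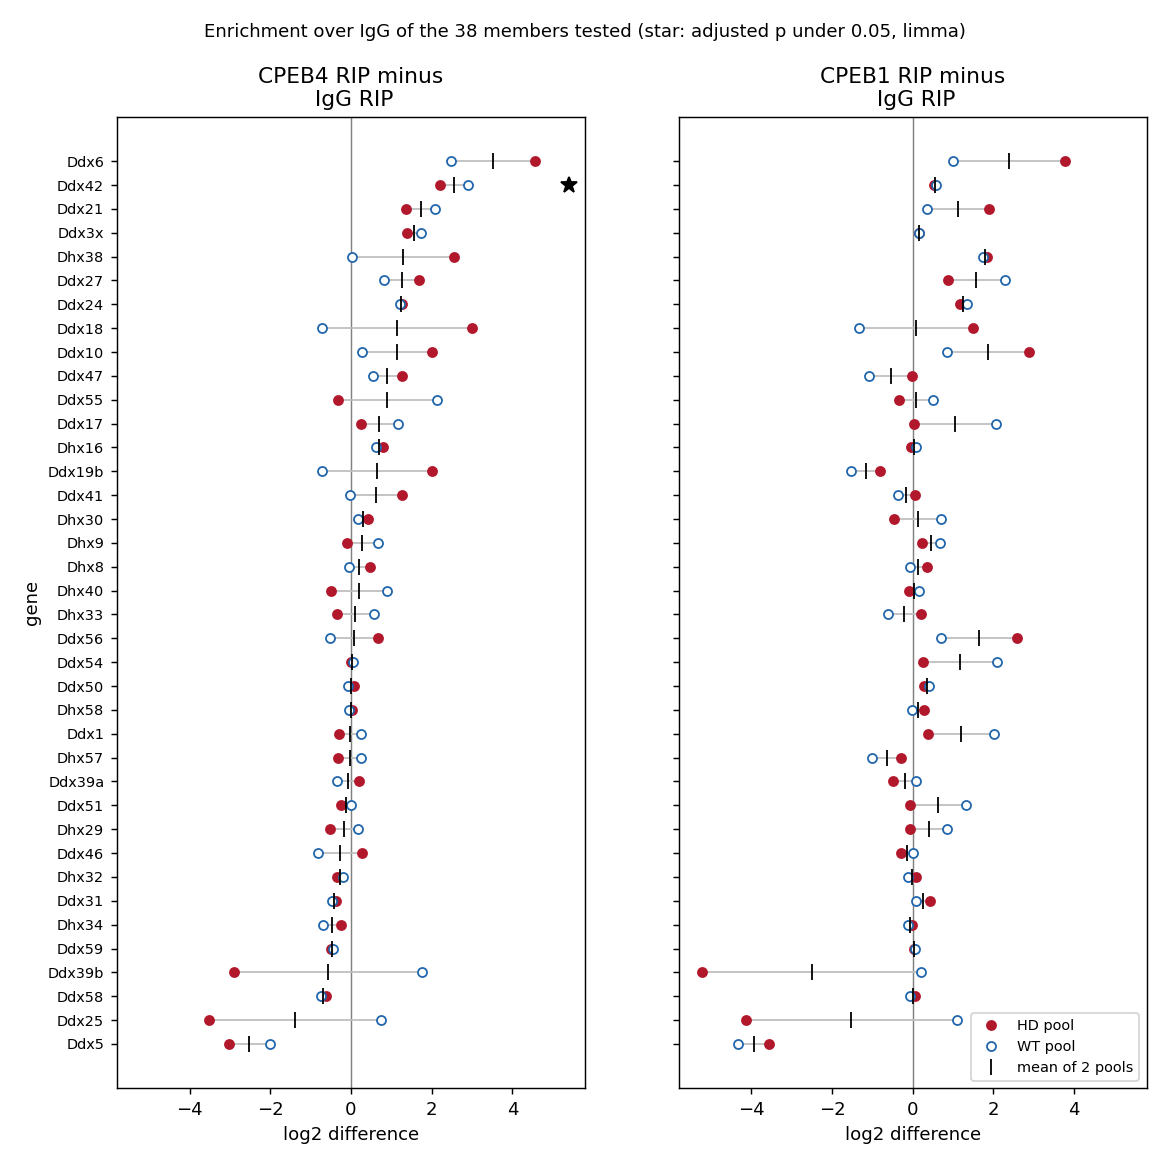
Log2 difference from IgG of the 38 tested members with CPEB4 (left) and CPEB1 (right), for the HD pool (filled), the WT pool (open) and their mean (tick), genes in order of the CPEB4 mean. Ddx42 is starred at 2.55, and Ddx39b and Ddx25 have long bars because the IgG array of the HD pool was high for both.

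Downward, Ddx5 had the largest difference. Ddx5 encodes p68, a helicase active in transcription, splicing and microRNA processing. Its higher probe set stood at 3.66 and 5.74 with CPEB4, at 3.12 and 3.44 with CPEB1, at 6.69 and 7.76 with IgG and at 4.06 and 3.49 in input. Both IgG arrays were thus above all others, and CPEB4 lay below input in HD and above it in WT. The difference from IgG was -2.52 ± 0.64 with CPEB4 (adjusted p = 0.12).

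The second Ddx5 probe set went the other way. It stood at 6.43 and 6.30 with CPEB4, at 3.17 and 3.48 with CPEB1, at 3.72 and 3.0 with IgG and at 4.06 and 3.88 in input. When every probe set was tested singly, an alternative chosen after seeing the data, its difference was 3.0 ± 0.33 for CPEB4 minus IgG (adjusted p = 0.0291) and 2.39 ± 0.33 for CPEB4 minus input (adjusted p = 0.0383). For CPEB1 minus CPEB4 it was -3.04 ± 0.33 (adjusted p = 0.0418). The mean of this probe set over the arrays, 4.25, is just above the filter. With the 2 probe sets opposed, no direction can be given for Ddx5.

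Ddx17, the paralog of Ddx5, had 6.34 and 6.50 with CPEB4 and 6.09 and 5.33 with IgG on its higher probe set (0.71 ± 0.54, adjusted p = 0.43). Its second probe set had 7.67 and 8.05 with CPEB4, 4.84 and 4.71 with CPEB1, 3.37 and 3.89 with IgG, and 4.14 and 8.15 in input (CPEB4 minus IgG 4.23 ± 1.04, adjusted p = 0.102). That probe set is of a class whose probes can also match other sequences. Dhx9, which encodes RNA helicase A, had a difference of 0.28 and Ddx1, of the tRNA ligase complex, one of -0.02. Ddx25, a testis helicase gene, and Ddx39b, of mRNA export, had differences of -1.39 and -0.58 that were opposite in sign between the pools. Ddx58, which encodes the viral RNA sensor RIG-I, had 4.78 and 4.54 with CPEB4, against 5.41 and 5.28 with IgG (-0.68 ± 0.26, adjusted p = 0.209).

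Of the 37 probe sets of members that were not the highest of their gene, 16 lay above the filter. Their CPEB4 minus IgG difference had the sign of the chosen probe set in 8 and the opposite sign in 8. With every probe set tested singly, Ddx42, Ddx3x (adjusted p = 0.0476) and the second Ddx5 probe set passed, 3 of 54 member probe sets, against 3.31% of all 16152 probe sets tested. In the same fit 1 of the 54 passed for CPEB1 minus CPEB4, against 0.898% of all, and 4 for CPEB4 minus input, against 2.58%.

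**Figure D3:**
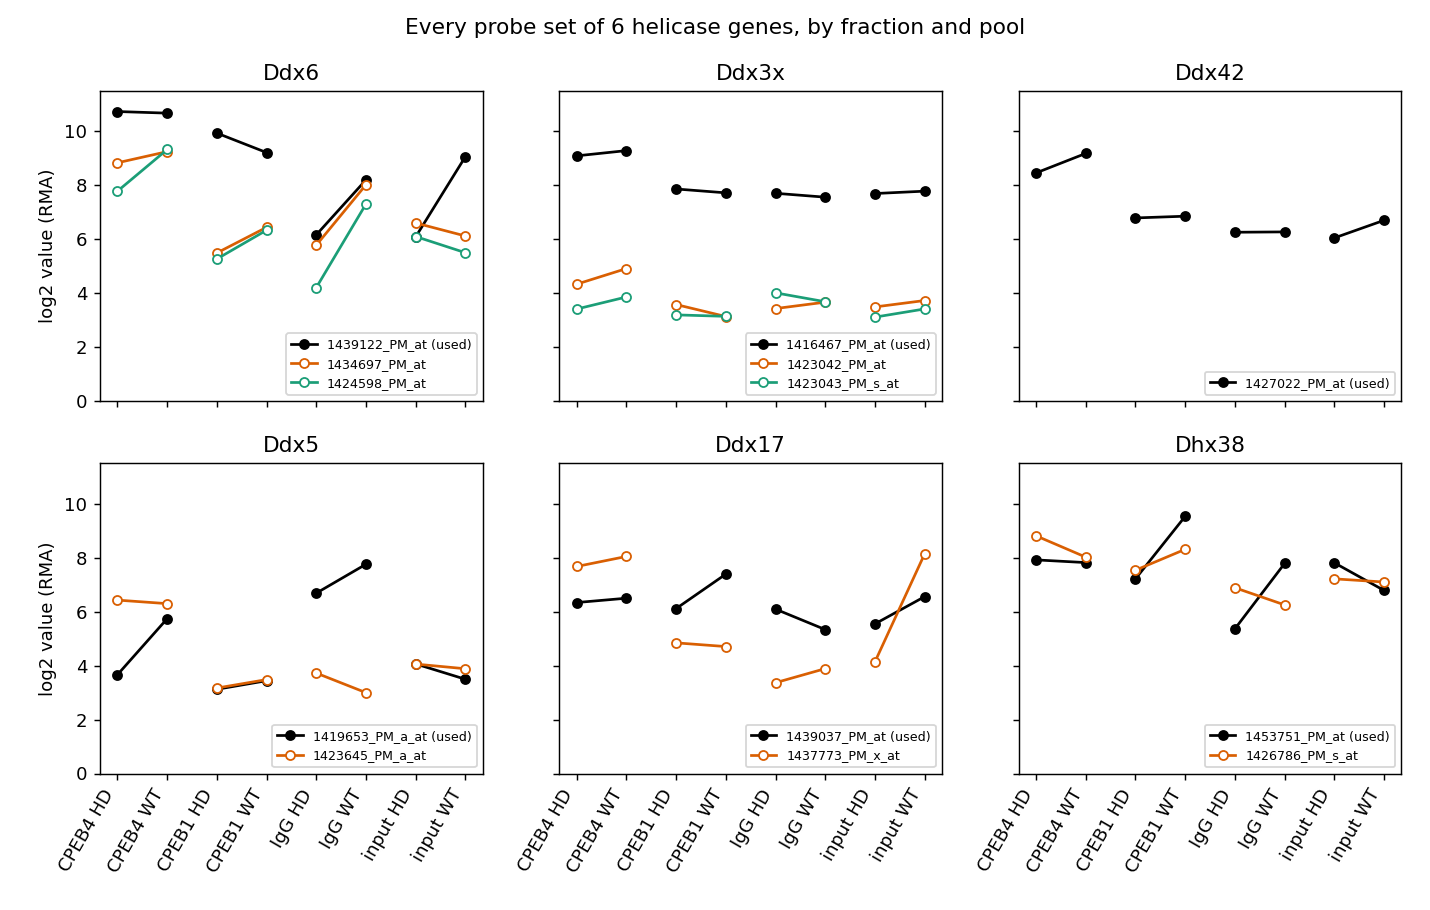
Log2 RMA values of every probe set of 6 helicase genes by fraction and pool. Filled black points mark the probe set used, and lines join the HD and WT arrays of a fraction. All 3 Ddx6 probe sets are highest with CPEB4, while the 2 of Ddx5 differ, 1 being highest with IgG and 1 with CPEB4.

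For CPEB1 against IgG no member passed, nor did any gene: 0 of 38 members were higher and 0 lower, against 0% and 0% of all genes by limma. At an unadjusted p under 0.05 there were 4 members, 3 of them higher, against 7.37% of all genes in either direction. The median of the members was 0.13, and of all genes 0.09. That of the members was 0.27 without the IgG array of HD and 0.22 without that of WT. Ddx6 again had the largest value (2.39 ± 0.95, adjusted p = 0.684), on the first probe set only. Ddx10, of ribosome assembly, followed. It had 9.90 and 9.23 with CPEB1 and 7.02 and 8.37 with IgG (1.87 ± 0.55, adjusted p = 0.474), and was the single member highest on both CPEB1 arrays. Dhx38 (1.80 ± 0.95), the nucleolar Ddx56 (1.65 ± 0.62), Ddx27 (1.57 ± 0.64) and Ddx24 (1.26 ± 0.28) completed the 6 highest, with adjusted p from 0.328 to 0.793. The second probe set gave 0.01 ± 0.30 for Ddx27 and 1.35 ± 0.45 for Dhx38.

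Ddx24 had the smallest SE of these 6. Its values were 9.79 and 9.53 with CPEB1, against 8.62 and 8.19 with IgG, a difference of 1.17 in HD and 1.34 in WT. The 4 lowest were Ddx5 (-3.94 ± 0.64, adjusted p = 0.197), Ddx39b (-2.50 ± 1.41), Ddx25 (-1.52 ± 1.27) and Ddx19b (-1.16 ± 1.72). For Ddx39b the HD pool gave -5.21 and the WT pool 0.20, the IgG array of HD standing at 10.67. The CPEB1 and CPEB4 comparisons share the IgG arrays, so a high or low IgG value moves a gene in both.

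Set directly against each other, CPEB1 and CPEB4 gave no called member: 0 of 38 were higher with CPEB1 and 0 lower, against 0% and 0.141% of all genes. At an unadjusted p under 0.05 there were 6 members, 3 in each direction, against 15.3% of all genes. The median of the members was -0.03 and that of all genes 0.21. The members' median turned sign without the CPEB1 array of HD (0.11) and without the CPEB4 array of HD (0.10) or WT (0.11). Ddx42 was lowest relative to CPEB4, at 6.79 and 6.86 with CPEB1 against 8.46 and 9.19 with CPEB4 (-2.00 ± 0.31, adjusted p = 0.0875). Ddx39b (-1.93 ± 1.41), the export helicase gene Ddx19b (-1.80 ± 1.72) and Ddx47 (-1.45 ± 0.34, adjusted p = 0.176) came next. Ddx3x, outside the 4 lowest, had -1.40 ± 0.25 (adjusted p = 0.111).

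Higher with CPEB1 were Ddx56, at 7.67 and 5.72 against 5.75 and 4.48 with CPEB4 (1.58 ± 0.62, adjusted p = 0.325), then Ddx1 (1.22 ± 0.53), Ddx54 (1.16 ± 0.51), Ddx51 (0.75 ± 0.41), Ddx10 (0.74 ± 0.55) and Ddx58 (0.68 ± 0.26). The arrays of the 2 fractions overlap for Ddx56. Of the 9 tested genes of splicing and export, 6 were lower with CPEB1 than with CPEB4 in both pools and 0 higher, against 25% and 46.7% of all genes, with a median of -0.68. None of the 9 was called. Among the 6, Dhx8 differed by only -0.12 in HD and -0.02 in WT. Every other Ddx19b probe set went the opposite way, by 0.45, 0.76 and 0.04 in HD and by 0.05, 0.12 and 0.36 in WT. On none of the probe sets that Ddx39b shares with H2-Q6 was CPEB1 below CPEB4 in both pools. The count of 6 thus rests in part on a difference near 0 and on readings that other probe sets did not repeat. Of the 13 tested genes of ribosome assembly 3 were lower and 6 higher, with a median of 0.32. Role groups were set with earlier results of these data known, and the remaining groups are not given.

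Against input, the RIPs differ from the RNA present in the lysate, and the IgG RIP gives the part that needs no CPEB antibody. With CPEB4, 3 of 38 members rose (7.89%) and 0 fell, against 1.34% and 0.0176% of all genes. At an unadjusted p under 0.05 there were 12 members, 7 of them higher, against 26.2% of all genes. The median of the members was 0.36 and of all genes -0.15. That of the members was 0.03 without the input of WT, 0.05 without the CPEB4 array of WT and 0.21 without that of HD.

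The 3 were Ddx47, Ddx42 and Ddx24. Neither Ddx47 nor Ddx42 had a further probe set of its own. Ddx47, whose yeast counterpart processes the RNA of the small ribosomal subunit, had 9.39 and 9.47 with CPEB4, against 5.48 and 6.04 in input (3.67 ± 0.34, 12.7-fold, adjusted p = 0.0353). IgG gave 8.14 and 8.92, so Ddx47 was 2.77 ± 0.34 above input with IgG (adjusted p = 0.15) and 0.90 ± 0.34 higher with CPEB4 than with IgG (adjusted p = 0.209). With CPEB1 it had 8.12 and 7.84, near the IgG values. Most of its distance from input was thus also present without a CPEB antibody. Ddx24 behaved in part alike, with 7.31 and 7.50 in input and 8.62 and 8.19 with IgG, and was 2.24 ± 0.28 higher with CPEB4 than in input (adjusted p = 0.0416). For Ddx42 IgG differed from input by -0.11, and CPEB4 was 2.45 ± 0.31 above input (5.45-fold, adjusted p = 0.0415).

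Without any 1 of the 8 arrays 0 of the 3 members passed (adjusted p from 0.0521 to 0.245), and neither did any other gene in those smaller fits. The differences themselves stayed between 3.49 and 3.85 for Ddx47, 2.21 and 2.69 for Ddx42, and 1.95 and 2.53 for Ddx24. After quantile normalization 0 passed, and under cyclic loess or trended robust eBayes Ddx47 alone did. The mean of the Ddx24 probe sets gave 0.87 (adjusted p = 0.111). Ddx6 was the second highest by size (3.13 ± 0.95, adjusted p = 0.14) but stood 4.64 above input in HD and 1.61 in WT. The lowest were Ddx58 (-0.92 ± 0.26), Ddx59 (-0.84 ± 0.31) and Ddx31 (-0.83 ± 0.25), none of which passed.

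For CPEB1 against input, 0 of 38 members were higher and 0 lower, against 0.0176% and 0% of all genes, and 4 members had an unadjusted p under 0.05, all higher, against 8.07% of all genes. Ddx10 was highest, with 9.90 and 9.23 with CPEB1, against 6.03 and 6.65 in input (3.23 ± 0.55, adjusted p = 0.184). Ddx24 (2.25 ± 0.28, adjusted p = 0.116) and Ddx47 (2.22 ± 0.34, adjusted p = 0.157) came next, all 3 being genes of ribosome assembly. Lowest were Ddx39b (-1.57), Ddx19b (-1.12) and Ddx5 (-0.50).

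For IgG against input, 0 of 38 members were higher and 0 lower, against 0.0176% and 0.00881% of all genes, with 5 members at an unadjusted p under 0.05, against 9.75% of all genes. Ddx5 on its higher probe set (3.45 ± 0.64, adjusted p = 0.259), Ddx47 and Ddx25 (1.99 ± 1.27) were highest, and Dhx9 (-0.95 ± 0.31), Ddx56 (-0.78 ± 0.62) and Ddx50 (-0.78 ± 0.25) lowest. Dhx9 had 4.50 and 4.04 with IgG, against 5.03 and 5.41 in input.

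Read by the fraction that was highest, both CPEB4 arrays lay above the 6 other arrays for 4 of 38 members, Ddx3x, Ddx6, Ddx42 and Ddx47 (10.5%), against 11.2% of all genes. Both CPEB1 arrays did so for Ddx10 (2.63%), against 3.22% of all genes, and both IgG arrays for Ddx5 (2.63%), against 4.04%. Both inputs did so for 4, Ddx50, Ddx58, Dhx9 and Dhx34 (10.5%), against 8.69%. The counts of members are near those of all genes in each fraction.

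Genes that work with these helicases were read from lists of other RNA helicases, DDX6 partners and export partners. Of 10 tested RNA helicases with other symbols, 0 passed in any of the 6 comparisons, and their median for CPEB4 minus IgG was 0.06. Dicer1, the microRNA-processing nuclease with a helicase domain, had 8.55 and 8.46 with CPEB4, against 5.43 and 5.84 with IgG (2.87 ± 0.59, adjusted p = 0.0803), and Eif4a1, the cap-dependent initiation helicase, 8.85 and 7.77 against 6.19 and 7.67 (1.38 ± 1.47). Of 7 tested DDX6 partners 0 passed in any comparison, with a median of 0.16. Lsm14b, of the repressive complex with DDX6, had 6.28 and 6.21 with CPEB4, against 4.60 and 4.34 with IgG (1.78 ± 0.32, adjusted p = 0.0623), and the decapping enzyme gene Dcp2 5.82 and 7.22 against 4.36 and 4.65 (2.01 ± 1.23). Of 6 tested export partners 0 passed, with a median of -0.43, and Alyref had 7.30 and 6.51 with CPEB4, against 9.59 and 7.51 with IgG (-1.64 ± 0.66, adjusted p = 0.224). Nxf1, the main mRNA export receptor gene, had 4.50 and 4.68 with CPEB4, against 5.25 and 5.4 with IgG (-0.73 ± 0.24, adjusted p = 0.17).

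HD was set against WT with 1 array each, so these differences were not tested and have no error. In input 5 members were at least 2-fold higher in HD and 2 lower (13.2% and 5.26% of 38), against 11.3% and 4.43% of all genes. The highest were Ddx19b, at 11.03 in HD against 6.09 in WT, Ddx39b, at 9.13 against 5.28, and Ddx46, at 8.74 against 5.55. The lowest was Ddx6, at 6.10 in HD against 9.07 in WT, before Ddx17, at 5.55 against 6.56, and Ddx18, at 7.44 against 8.35. The second Ddx17 probe set was lower in HD too, at 4.14 against 8.15. The other Ddx6 probe sets did not share the difference of the chosen one, with 6.61 against 6.13 and 6.10 against 5.5. Those of Ddx18 did not share its difference either, with 5.29 against 5.08 and 3.98 against 3.71. Nor did the other 4 probe sets of Ddx46 share its difference, with 5.46, 4.83, 3.53 and 3.61 in HD against 5.36, 4.90, 3.71 and 3.67 in WT. Ddx39b had 1 probe set of its own. Those shared with H2-Q6, which were not used, had 8.40, 6.02 and 4.36 in HD against 6.67, 4.71 and 4.67 in WT. The other 3 probe sets of Ddx19b, with 4.79, 4.30 and 3.67 in HD against 4.44, 4.29 and 3.55 in WT, did not show the difference of its chosen one, which is of a class that can match several transcripts. In these pooled tissues fewer cells of a type and less RNA per cell cannot be told apart. Of 3 tested astrocyte markers 1, Gfap, was higher in HD input (8.61 against 6.13), the mean of the list being 6.0 in HD and 5.68 in WT, and of 6 medium spiny neuron markers 2 were higher (mean 8.21 in HD and 8.45 in WT). In the RIPs the mean of the medium spiny neuron list was 8.33 in HD and 9.42 in WT with CPEB4, 7.76 and 9.47 with CPEB1, and 7.38 and 9.0 with IgG. That of 3 oligodendrocyte markers was 8.71 in HD and 9.42 in WT with CPEB4, 7.88 and 8.46 with CPEB1, and 6.47 and 8.54 with IgG. Other lists went otherwise. The astrocyte mean was 6.23 in HD and 5.73 in WT with CPEB4, 4.47 and 5.91 with CPEB1, and 5.97 and 5.57 with IgG. In the same order the endothelial mean was 5.37 and 4.98, 5.81 and 5.43, and 5.60 and 5.42. The microglia mean was 5.59 and 5.78, 5.74 and 5.87, and 6.01 and 6.17. The part of these markers in the helicase differences was not tested.

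In the CPEB4 RIP 3 members were at least 2-fold higher in HD and 6 lower, against 4.55% and 11.6% of all genes. The highest were Ddx27, at 8.66 in HD against 6.44 in WT, Ddx56 (5.75 against 4.48) and Ddx41 (7.29 against 6.14), and the lowest Ddx5 (3.66 against 5.74), Ddx55 (5.02 against 6.83) and Dhx40 (5.39 against 6.80). The second Ddx27 probe set was higher in HD too (4.39 against 3.77). The second Ddx5 probe set did not share the difference of the first (6.43 in HD against 6.30 in WT). That of Ddx55 had 5.31 against 5.58. Of the 4 members with the largest CPEB4 minus IgG difference, HD minus WT was 0.06 for Ddx6, -0.72 for Ddx42, -1.06 for Ddx21 and -0.19 for Ddx3x in the CPEB4 RIP. The other Ddx6 probe sets had 8.84 and 7.79 there in HD, against 9.25 and 9.33 in WT. In the CPEB1 RIP 2 were higher and 7 lower, against 3.34% and 17.9% of all genes, with Ddx56 (7.67 against 5.72), Ddx21 (7.56 against 6.35) and Ddx6 (9.94 against 9.22) at the top and Dhx38 (7.22 against 9.53), Ddx54 (6.56 against 8.07) and Ddx19b (6.70 against 8.17) at the bottom.

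In the IgG RIP 4 were higher and 7 lower, against 5.32% and 10% of all genes. Ddx39b (10.67 in HD against 5.60 in WT), Ddx25 (9.42 against 5.32) and Ddx27 (6.97 against 5.62) were highest, and Ddx18 (6.66 against 9.44), Dhx38 (5.36 against 7.79) and Ddx19b (7.50 against 9.69) lowest. The other probe sets of Ddx18 (5.53 and 4.49 in HD against 5.29 and 4.31 in WT) and Dhx38 (6.89 against 6.25) went the other way. Those of Ddx19b had 4.39, 4.28 and 3.56 in HD against 4.84, 4.33 and 3.50 in WT, and that of Ddx27 4.59 against 4.47. The 2 largest differences between the pools in the IgG control, 5.07 for Ddx39b and 4.10 for Ddx25, exceed every HD minus WT difference of a member in the CPEB4 and CPEB1 RIPs. Probe sets shared by Ddx39b and H2-Q6 did not repeat that of Ddx39b. They had 7.49, 5.12 and 3.86 with IgG in HD against 7.80, 5.64 and 3.74 in WT.

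**Figure D4:**
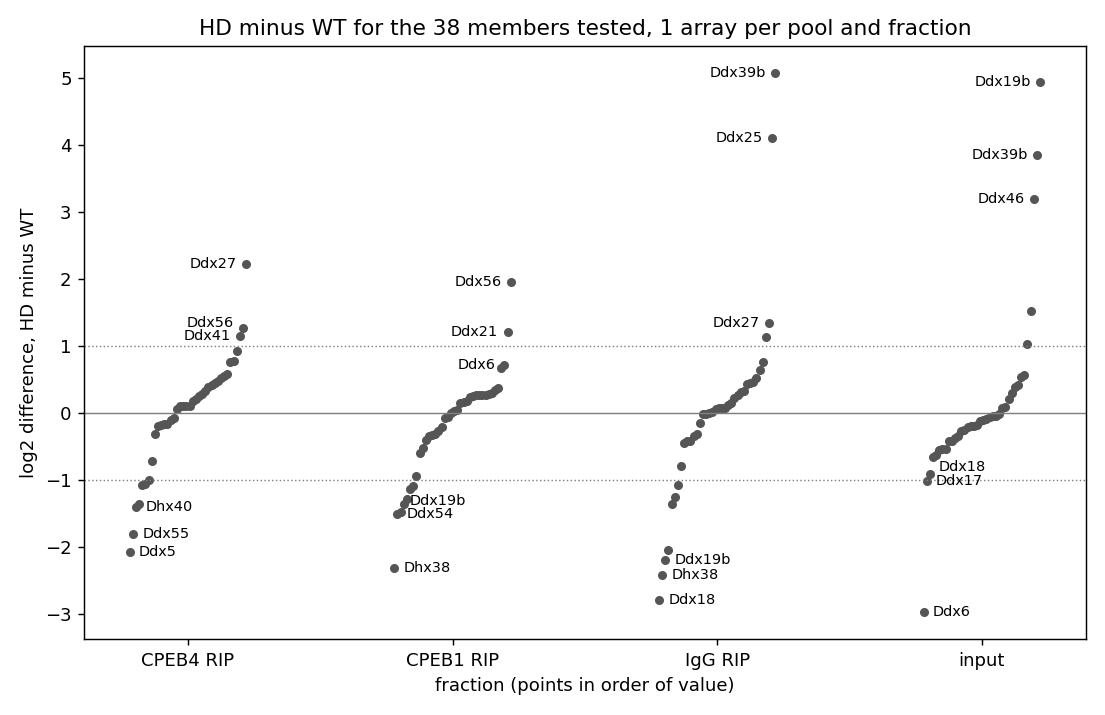
Log2 difference between the HD and the WT array for each of the 38 tested members within each fraction, points in order of value, dotted lines at 2-fold. The widest values lie in IgG, with Ddx39b at 5.07, and in input, with Ddx19b at 4.93, and the CPEB4 and CPEB1 values lie between -2.32 and 2.22.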

How the data were processed

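Per the labels' protocols, striatal lysates crosslinked with formaldehyde were precleared and precipitated, and the recovered RNA was amplified and hybridised to 8 mouse arrays. The authors summarised probe sets on the log2 scale with RMA, per the submitters' processing notes, which give no version or build. They were used with no further scaling. Of 45101 probe sets, 28898 had 1 gene symbol, 551 several and 15652 none in the platform annotation. Only those with 1 symbol were used, the one with the highest mean for each gene. All 48 member symbols were matched by gene identifier to the RefSeq table of GRCm38.p6 and had the same symbol there. Genes with a mean above 4.23 were tested with lmFit and eBayes of limma 3.58.1 under R 4.3.3, two-sided, in a model of fraction and genotype pool over all 8 arrays, with 3 residual and 2.29 prior degrees of freedom. The block takes out the mean difference between the pools. The number of arrays limits the precision. The model was tested on simulated data, 5 runs with 200 of 11345 genes changed with CPEB4. For CPEB4 minus IgG it called 0% of changes of log2 1, 22.4% of log2 2 and 88.5% of log2 4. On average 4.4 of 77.8 genes called were false. A member that did not pass can thus still differ by several-fold. The simulated noise was independent and normal, with the same SD for a gene on every array and no pool or array effect. The arrays here differ in spread, so the false share of the simulation need not hold for them. Members, role groups and partner lists were chosen with earlier results of these data known. Named with values were members that passed, the 6 highest and 4 lowest for each antibody against IgG and between antibodies, the 3 highest and 3 lowest against input and for HD minus WT, Ddx1, Ddx3x, Ddx5, Ddx6, Ddx17, Dhx9 and Dhx36, and the 2 largest list genes; members named beyond these were chosen after their values were seen. Alternatives were trended robust eBayes, a fit with no block, one of only the fractions compared and one without each array in turn, cyclic loess, quantile normalization and median centring, other filters, probe sets averaged per gene, 1.5-fold and 3-fold in place of 2-fold, and, added after seeing the data, every probe set singly.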

Additional observations from a re-analysis of the deposited data

Results flagged for a closer look

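For the genes below the 2 genotype pools gave differences of at least 2-fold in opposite directions, with 1 array per pool and fraction, so that the difference between the pools was not tested. Ddx39b differed from IgG with CPEB4 by -2.90 in HD and 1.75 in WT, and from input with CPEB4 by -1.36 in HD and 2.07 in WT. Probe sets it shares with H2-Q6 had 8.26, 4.85 and 3.77 with CPEB4 in HD, against 7.49, 5.12 and 3.86 with IgG. In WT they had 8.28, 4.98 and 3.61, against 7.80, 5.64 and 3.74. On each of them both pools lay on the same side of IgG. Ddx18 differed from IgG with CPEB1 by 1.5 in HD and -1.33 in WT, and Ddx25 by -4.14 in HD and 1.10 in WT. The other Ddx18 probe sets did not share this, with 0.43 and -0.59 in HD and 0.06 and -0.75 in WT. Ddx19b differed from input by -1.51 in HD and 2.87 in WT with CPEB4, and by -4.33 in HD and 2.08 in WT with CPEB1. With IgG it differed by -3.53 in HD and 3.60 in WT, and these 3 comparisons share the input arrays. The other Ddx19b probe sets differed from input by less than 2-fold in both pools of each RIP. Ddx39b and Ddx25 had no other probe set of their own.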

How the results depend on the processing

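For CPEB4 minus IgG, 1 member passed as reported, 2 with no filter on dim genes, with median centring or with no replicate block, 3 with every probe set tested singly, and 0 under cyclic loess, quantile normalization, trended robust eBayes or with only the arrays compared; without 1 array the count was 0 to 1. For CPEB4 minus input it was 3 as reported, 0 above the 75th percentile, after quantile normalization or with only the arrays compared, 1 under cyclic loess or trended robust eBayes, 2 with probe sets averaged, 4 with median centring, with no replicate block or with every probe set tested singly, and 0 without any 1 array. For CPEB1 minus CPEB4 it was 0 as reported, and 1 with every probe set tested singly. For the other 3 comparisons it was 0 under all alternatives run. With no replicate block, the fit that ignores the pairing by pool, the genes called went from 16 to 81 for CPEB1 minus CPEB4 and from 154 to 239 for CPEB4 minus input. Quantile normalization took the genes called from 269 to 9 for CPEB4 minus IgG and the median of all genes from -0.06 to -0.24, that of the members going from 0.16 to 0.01; median centring took it to 0.10. Of the 28 members recomputed singly, none changed direction where it was called, and uncalled values turned sign in 37 of 468 for CPEB4 minus IgG. Many of the 468 could not turn. Another filter, no block, another variance model or leaving out arrays outside the comparison leaves the difference itself as it was. The count therefore understates how often a sign turned where it could. Counts of members at least 2-fold higher or lower in HD than in WT moved as follows. Under quantile normalization 5 were higher and 3 lower with CPEB4, and 8 higher and 3 lower with CPEB1; cyclic loess gave 5 higher with CPEB1. The mean of probe sets gave 3 lower with CPEB4, 1 higher and 4 lower with CPEB1, 2 higher and 2 lower with IgG, and 3 higher and 1 lower in input, and median centring 1 lower in input. At 1.5-fold 6 were higher with CPEB4, 4 higher with CPEB1 and 5 lower in input. At 3-fold 1 was higher and 2 lower with CPEB4, 1 higher and 1 lower with CPEB1, 2 higher and 4 lower with IgG, and 3 higher and 1 lower in input. The causes of these moves were not tested.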
